A study of Mus musculus with 12 samples.

Results

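Intermediate filament genes of neural cells were described here in EED-/- and WT mouse cerebellum. The set holds 10 genes, named by their known place in glia, neural progenitors, neurons or muscle: Gfap, Vim, Nes, Synm, Nefl, Nefm, Nefh, Ina, Prph and Des. They were found by symbol in the deposited table of differences and joined by Ensembl gene ID to the deposited counts. The count table lists 55385 genes, of which 18091 had enough counts to be tested, and all 10 members were among these. Polyadenylated RNA of whole cerebellum was sequenced from EED-/- mice, titled cKO, and from wild-type (WT) mice, all C57BL/6 at postnatal day 14, with 3 libraries per genotype. A further 6 ChIP-seq samples of both genotypes were not analysed here. Neither the driver of Cre nor the deleted exons of Eed are named in the labels, so the cells that lost the gene are not known from them. Separate animals per library are not stated either, and p-values therefore measure the spread between these libraries, which may be technical.

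Intermediate filaments are rope-like polymers of coiled-coil proteins that give cells mechanical strength, and which subunit a cell makes depends on its type. GFAP and vimentin fill astrocytes and the Bergmann glia of the cerebellum, and nestin and synemin join vimentin in progenitors and in reactive astrocytes. The neurofilament light, medium and heavy chains (Nefl, Nefm, Nefh) and alpha-internexin (Ina) form the filaments that set axon calibre. Alpha-internexin is also known as the main neuronal subunit of cerebellar granule neurons, peripherin (Prph) as that of peripheral and brainstem neurons, and desmin (Des) as that of muscle. EED is a core protein of Polycomb repressive complex 2, which methylates histone H3 at lysine 27 and is known to act at CpG-rich promoters of developmental genes.

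The libraries held 19621814 to 20366173 estimated counts. Levels are given in CPM, a gene's counts relative to its library's total, with TMM factors that set the bulk of genes equal between libraries. Eed had 11.6, 9.31 and 11.3 CPM in EED-/- libraries 1, 2 and 3, against 20.1, 26.6 and 23.5 CPM in WT libraries 1, 2 and 3, which checks the labels (log2 fold change -1.12, SE 0.154, adjusted p = 0.0015). Adjusted p-values throughout are those of edgeR's quasi-likelihood test, adjusted by Benjamini-Hochberg over all 18091 genes, and a gene was called at an adjusted p under 0.05. All 13 granule neuron markers were lower in EED-/- libraries, where they summed to 736 to 958 CPM, against 5477 to 6850 CPM in WT libraries. In bulk tissue, fewer cells of a type and less RNA per cell cannot be told apart, and a loss of 1 cell type raises the share of RNA from all others. The part of this in the results on the filament genes was not tested.

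The windows just upstream of the transcription start are shown for the 2 members with the largest changes, Gfap and Des, and for 2 members that were not called, Ina and Prph. Each is the 250 bases before the RefSeq start in GRCm38.p6, in lower case from 5′ to 3′, and the capitals mark every match to the motifs searched. Those motifs were the TATA box (TATAAA), the CCAAT box (CCAAT), the GC box (GGGCGG), a MyoD-type E-box (CAGCTG), a STAT palindrome (TTCNNNGAA), the cyclic AMP response element (TGACGTCA) and the AP-1 site (TGANTCA), on both strands.
Gfap (chr11:102897201-102897450, minus strand): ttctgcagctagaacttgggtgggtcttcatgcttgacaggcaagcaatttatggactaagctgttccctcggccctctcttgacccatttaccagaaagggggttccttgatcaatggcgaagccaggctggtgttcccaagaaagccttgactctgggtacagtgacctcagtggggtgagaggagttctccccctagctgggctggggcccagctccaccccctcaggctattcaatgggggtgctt
Des (chr1:75360042-75360291, plus strand): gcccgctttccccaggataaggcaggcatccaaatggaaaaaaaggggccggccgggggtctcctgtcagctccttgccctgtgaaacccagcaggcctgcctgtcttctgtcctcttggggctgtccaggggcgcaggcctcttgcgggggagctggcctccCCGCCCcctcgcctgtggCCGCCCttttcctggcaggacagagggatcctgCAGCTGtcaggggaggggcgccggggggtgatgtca
Ina (chr19:47014431-47014680, plus strand): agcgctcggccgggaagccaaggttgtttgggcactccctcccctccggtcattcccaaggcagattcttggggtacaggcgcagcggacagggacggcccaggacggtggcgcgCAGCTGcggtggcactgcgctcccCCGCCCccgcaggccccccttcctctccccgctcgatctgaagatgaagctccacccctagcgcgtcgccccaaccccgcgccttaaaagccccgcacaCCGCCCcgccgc
Prph (chr15:99054924-99055173, plus strand): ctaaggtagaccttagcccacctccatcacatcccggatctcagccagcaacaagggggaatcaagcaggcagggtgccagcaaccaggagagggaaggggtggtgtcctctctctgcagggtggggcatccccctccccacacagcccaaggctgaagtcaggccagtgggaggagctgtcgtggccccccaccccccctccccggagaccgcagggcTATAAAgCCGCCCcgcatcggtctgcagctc
The Gfap window held none of these letters. It lies inside the span of Gfap in the GENCODE annotation (chr11:102887336-102900912), whose start differs from that of RefSeq, and it holds no GENCODE exon. The Des window held GC boxes whose first bases lie at -87 and -69 and an E-box at -36, counted from the start. The Ina window held GC boxes at -111 and -12 and an E-box at -135. The Prph window held a TATA box at -31 and a GC box at -24, and no matches overlapped. Among 32851 RefSeq promoter windows of this length, 12.4% held the TATA box, 33.8% the CCAAT box, 32.7% the GC box and 13.0% the E-box. The STAT palindrome was in 7.02%, the cyclic AMP response element in 1.55% and the AP-1 site in 6.75%. A match is a description of the letters and not evidence of binding.

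The same windows differed in their number of CpG dinucleotides. Sequences of 7 of the 10 members were matched, and Nefl, Nefm and Nefh were not. The Vim and Nes windows overlap GENCODE exons of the same genes, and the Synm window overlaps an exon of another gene, Gm45102. The Gfap window held 2 CpGs, and 81.2% of all promoter windows held at least as many. The Prph, Vim and Des windows held 7, 8 and 10 CpGs, against a median of 6 over all windows. The Nes window held 15, the Synm window 23 and the Ina window 25, and 10.7% of all windows held at least as many as Ina. Among these 7 members, those called higher (2, 10, 15 and 23 CpGs) and those not called (7, 8 and 25 CpGs) were interleaved, with no order that separated them.

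Of the 10 members, 7 were called higher in EED-/- cerebellum, 0 were called lower and 3 were not called. Over all 18091 tested genes 11.7% were called higher and 14.1% lower. The genes called higher were Gfap, Nes, Synm, Nefl, Nefm, Nefh and Des, and those not called were Vim, Ina and Prph. In 8 members every EED-/- library lay above every WT library, an arrangement found in 20.1% of all tested genes. The median log2 fold change of the members was 0.53, against -0.027 over all tested genes. Summed over the 10 genes, transcripts made up 3400, 3902 and 4388 CPM in EED-/- libraries 1, 2 and 3, against 2681, 2467 and 2600 CPM in WT libraries, a ratio of the means of 1.51. Without WT library 3 the number called higher was 4, and with the other libraries left out in turn it was 6 to 8. With upper-quartile scaling, which moved the median of all genes by 0.12 on the log2 scale, 8 members were called higher, and over all genes 2828 were called higher and 1786 lower, against 2125 and 2544 with TMM.

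**Figure D1:**
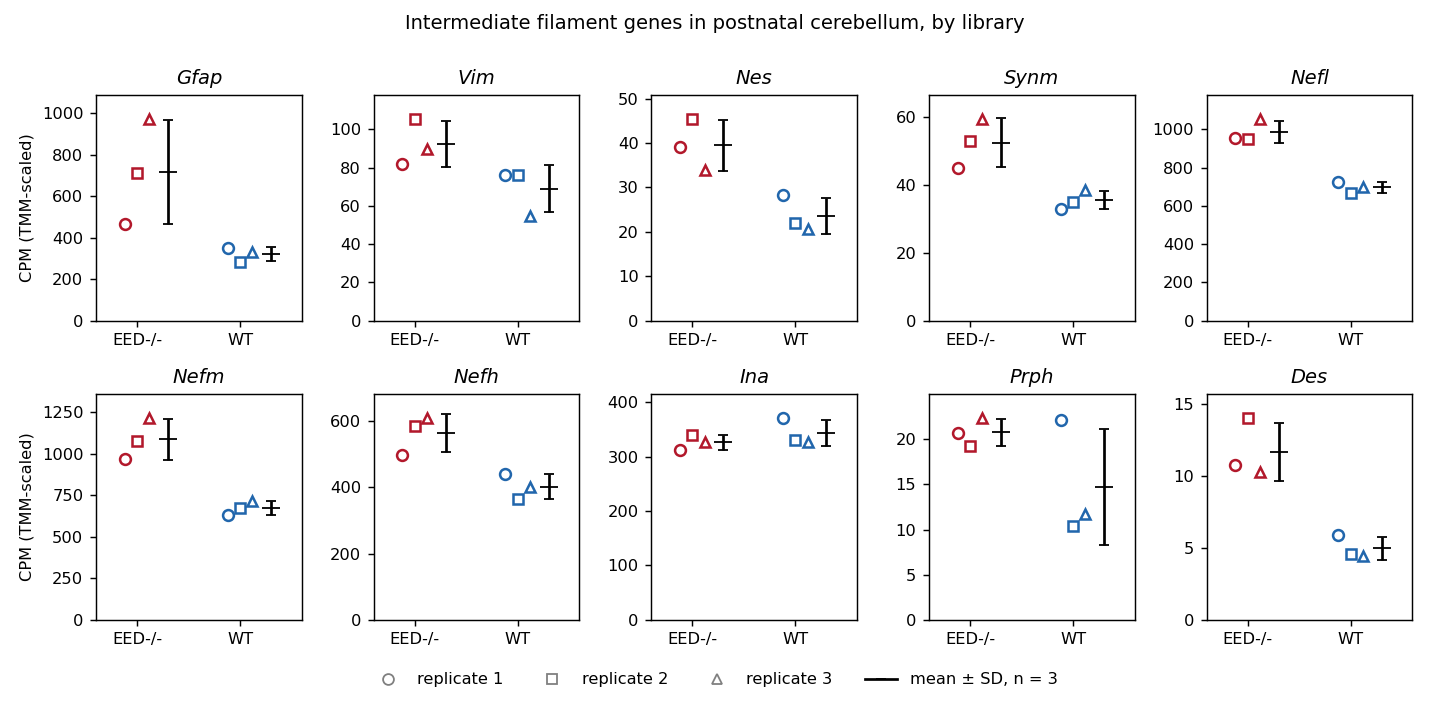
Level of each intermediate filament gene in CPM (vertical axes start at 0) in the 3 EED-/- libraries, left, and the 3 WT libraries, right, with symbols for replicates and black marks for mean ± SD. The EED-/- points lie above all WT points in every panel but Ina and Prph, and the 3 EED-/- Gfap points spread between 466 and 971 CPM.

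The glial gene Gfap, on the minus strand of chromosome 11 (chr11:102887336-102900912, GRCm38), had one of the 2 largest rises among the members. Its level was 466, 712 and 971 CPM in EED-/- libraries 1, 2 and 3, against 350, 284 and 329 CPM in WT libraries 1, 2 and 3. The lowest EED-/- library stood 1.33 times above the highest WT library, and EED-/- libraries varied far more among themselves, 2.08-fold between lowest and highest, against 1.23-fold in WT. The means were 716 ± 253 CPM in EED-/- and 321 ± 33.7 CPM in WT libraries (SD, n = 3 each), a 2.23-fold difference (log2 fold change 1.16, SE 0.243, adjusted p = 0.0108). Among all 13 other settings and left-out libraries the gene stayed called, at log2 fold changes of 0.93 to 1.39. In the authors' deposited table its log2 fold change is 1.18 with an adjusted p of 4.19e-06.

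Markers of Bergmann glia and astrocytes did not move as a group beside Gfap. Their summed level was 6247, 6795 and 7628 CPM in EED-/- libraries 1, 2 and 3, against 7535, 7039 and 6974 CPM in WT libraries, with overlapping ranges. Of 16 markers, 3 were called higher and 3 lower, and the median log2 fold change was -0.049. Slc6a11, a GABA transporter of astrocytes, rose to 768 ± 110 CPM in EED-/-, against 347 ± 47.5 CPM in WT libraries. Slc1a3, the glutamate transporter GLAST of Bergmann glia, fell to 429 ± 17.0 CPM in EED-/-, against 1202 ± 96.3 CPM in WT libraries, and Gdf10, a growth factor of Bergmann glia, and Hopx, a homeodomain protein, fell by 1.84 and 0.96 on the log2 scale. Gfap alone equalled 7.46%, 10.5% and 12.7% of that marker sum in EED-/- libraries 1, 2 and 3, against 4.64%, 4.03% and 4.72% in WT libraries, so Gfap was higher in EED-/- relative to the astrocyte markers too.

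Markers of reactive astrocytes, a state in which Gfap is classically raised, summed to 252, 281 and 332 CPM in EED-/- libraries 1, 2 and 3, against 159, 149 and 135 CPM in WT libraries. Of 14 tested markers 6 rose and 0 fell, with a median log2 fold change of 0.88, and Cxcl10 was too low to test. The complement gene C4b rose most clearly, to 53.2 ± 11.8 CPM in EED-/-, against 12.7 ± 0.681 CPM in WT libraries. Osmr, the oncostatin M receptor, rose by a log2 fold change of 1.38, the lipid receptor S1pr3 by 1.16 and the asparaginase gene Aspg by 1.32. The ratio of Gfap to this list overlapped between genotypes: Gfap equalled 185%, 254% and 293% of the list's sum in EED-/- and 220%, 191% and 244% in WT libraries. Microglial markers also moved, with 8 of 10 called higher and sums of 346 to 390 CPM in EED-/-, against 190 to 204 CPM in WT libraries. The part of reactive or microglial changes in the Gfap result was not tested.

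Genes of the pathways known to control Gfap transcription (JAK-STAT, BMP-SMAD, nuclear factor I, Notch and AP-1) did not rise as a group beside Gfap. Of 24 such genes, all tested, 2 rose, 6 fell and 16 were not called, and the median log2 fold change was 0.016. Over all tested genes 11.7% were called higher and 14.1% lower. The nuclear factor I genes, transcription factors needed for Gfap expression when glia form, fell together. Nfix fell to 182, Nfia to 88.8 and Nfib to 125 CPM on average in EED-/-, against 563, 185 and 322 CPM in WT libraries (log2 fold changes -1.63, -1.06 and -1.37; adjusted p = 0.000322, 0.000709 and 0.000855). Granule neurons also express nuclear factor I genes, and the granule markers fell in the same libraries. Osmr, counted in the reactive list too, and Lifr, a cytokine receptor that signals through STAT3, were the 2 genes that rose. Stat3 itself, the transcription factor of that pathway, averaged 78.7 CPM in EED-/- and 76.4 CPM in WT libraries and was not called. The other genes that fell were the cytokine receptor gene Cntfr, the JAK-STAT inhibitor Socs3 and the BMP effector Smad1, with log2 fold changes of -0.81, -0.92 and -0.48. Without EED-/- library 2 or WT library 3 only 1 gene of this list was called higher, and without EED-/- library 3 there were 4.

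Vimentin, the filament protein of immature glia and of endothelial and connective tissue cells, showed a small difference that did not pass the test. Vim (chr2:13573927-13582826, plus strand) had 81.9, 105 and 89.6 CPM in EED-/- libraries 1, 2 and 3, against 75.9, 76.2 and 54.7 CPM in WT libraries. The groups were separate, but the lowest EED-/- library was only 1.08 times the highest WT library. The means were 92.3 ± 11.9 CPM in EED-/- and 68.9 ± 12.3 CPM in WT libraries (log2 fold change 0.42, SE 0.159, adjusted p = 0.087). With upper-quartile scaling, library size alone or no low-count filter the adjusted p was 0.0369, 0.0414 and 0.0348, so the call depends on those choices.

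Nestin, known from neural stem and progenitor cells and from young vessels, rose. Nes (chr3:87971078-87980451, plus strand) had 39.2, 45.3 and 33.9 CPM in EED-/- libraries 1, 2 and 3, against 28.3, 21.9 and 20.6 CPM in WT libraries. Every EED-/- library was above every WT library, and the means were 39.5 ± 5.74 CPM in EED-/- and 23.6 ± 4.10 CPM in WT libraries. The log2 fold change was 0.74 (SE 0.161, adjusted p = 0.0113), and without WT library 3 the gene was not called (0.65, adjusted p = 0.0547). Synm, which encodes synemin, a large partner that links vimentin and desmin filaments to membranes, lies at chr7:67730160-67759742 on the minus strand. Its levels of 45.1, 53.1 and 59.4 CPM in EED-/- libraries were all above the 33.1, 35.1 and 38.4 CPM of WT libraries (log2 fold change 0.56, SE 0.131, adjusted p = 0.0151).

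Several cell types that make vimentin or nestin had raised markers in the same libraries. All 10 markers of meningeal fibroblasts rose, with sums of 873 to 1189 CPM in EED-/-, against 376 to 453 CPM in WT libraries. Of 10 endothelial markers 3 rose and 1 fell, with sums of 415 to 473 CPM in EED-/-, against 346 to 379 CPM in WT libraries. Among 11 tested markers of neural progenitors 4 rose and 1 fell, and their sums overlapped, at 338 to 487 CPM in EED-/- and 315 to 393 CPM in WT libraries. Oligodendrocyte progenitor markers rose in 5 of 8 cases, with sums of 956 to 1311 CPM in EED-/-, against 747 to 819 CPM in WT libraries. Their part in the Vim, Nes and Synm values was not tested.

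**Figure D2:**
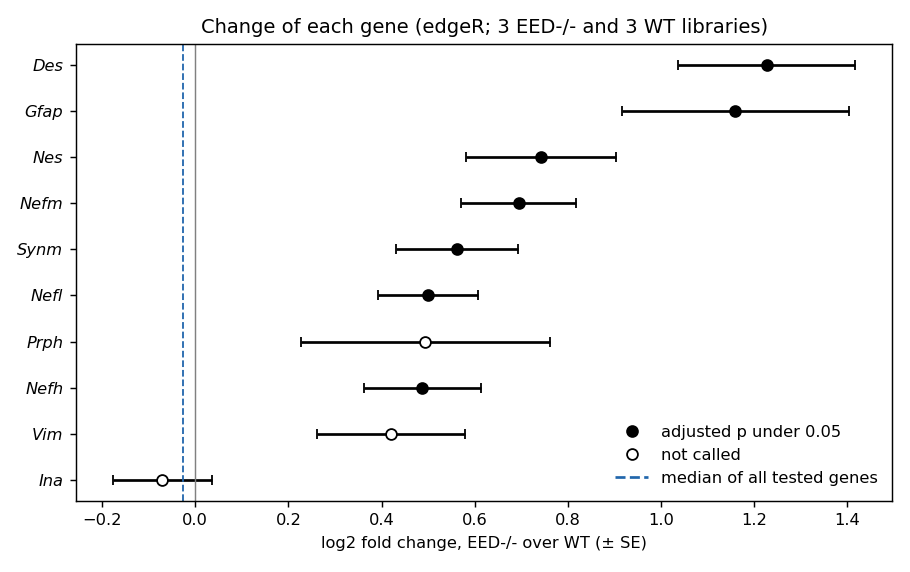
Log2 fold change of each gene, EED-/- over WT, with its standard error, filled where the adjusted p was under 0.05 and open where it was not; the dashed line is the median of all tested genes. Des (1.23) and Gfap (1.16) lie farthest to the right, 5 further called genes lie between 0.49 and 0.74, and Ina lies at -0.070.

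The neurofilament chains rose together, and the medium chain had the largest log2 fold change among them. Its ratios to the light and heavy chains within a library overlapped between genotypes, so the order of the chains is not settled. Nefl, the core subunit on which the others assemble, had 957, 952 and 1053 CPM in EED-/- libraries 1, 2 and 3, against 727, 669 and 699 CPM in WT libraries. Nefm, the medium chain, had 968, 1077 and 1213 CPM in EED-/- libraries, against 629, 672 and 713 CPM in WT libraries. Nefh, the heavy chain whose long tail is heavily phosphorylated in mature axons, had 499, 584 and 608 CPM in EED-/- libraries, against 440, 363 and 402 CPM in WT libraries. For all 3 genes the groups were apart, by 1.31-fold between the nearest libraries for Nefl, 1.36-fold for Nefm and 1.13-fold for Nefh. The log2 fold changes were 0.50 for Nefl (SE 0.107, adjusted p = 0.0106), 0.69 for Nefm (SE 0.124, adjusted p = 0.0048) and 0.49 for Nefh (SE 0.126, adjusted p = 0.0222). Nefm stayed called in all 13 other settings. Nefl was not called without WT library 3 (adjusted p = 0.0549), and Nefh was not called without EED-/- library 2 (0.077), EED-/- library 3 (0.0508), WT library 2 (0.054) or WT library 3 (0.0859).

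Nefl and Nefm are neighbours that overlap, and this limits how far their counts can be told apart. In the GENCODE annotation of GRCm38, Nefl (chr14:68083863-68089095, plus strand) lies wholly inside the span of Nefm (chr14:68082590-68124846, minus strand). They share 1108 exon bases, which are 32.8% of the exon bases of Nefl and 19.2% of those of Nefm. Use of strand in the counting, not given in the sources used here, decides the split: without it, reads from the shared bases could have been given to either gene. Nefh stands elsewhere (chr11:4938754-4948064, minus strand) and shares no exon bases with another gene, and its log2 fold change of 0.49 was close to the 0.50 of Nefl. Smaller shares were found for Ina (14.1% with Nt5c2), Synm (6.43% with Ttc23 and Gm45102) and Des (5.86% with the antisense gene Gm15179), and none for Gfap, Vim, Nes and Prph.

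Alpha-internexin stood apart from the other neuronal subunits. Ina (chr19:47014698-47025327, plus strand) had 313, 341 and 327 CPM in EED-/- libraries 1, 2 and 3, against 371, 331 and 327 CPM in WT libraries. The ranges overlapped, with means of 327 ± 14.0 CPM in EED-/- and 343 ± 24.0 CPM in WT libraries, and the difference did not pass the test (log2 fold change -0.070, SE 0.106, adjusted p = 0.668). Its sign changed with the scaling and with 1 library: it was 0.046 under upper-quartile scaling, 0.030 on library size alone and 0.040 once WT library 1 was left out.

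Within each library the ratio of Ina to the neurofilament chains was lower in EED-/-. Ina over Nefl was 0.327, 0.358 and 0.310 in EED-/- libraries 1, 2 and 3, against 0.510, 0.495 and 0.468 in WT libraries. Ina over Nefm was 0.323, 0.316 and 0.269 in EED-/- libraries, against 0.589, 0.493 and 0.459 in WT libraries. On the log2 scale these ratios differed by -0.57 and -0.76, with no overlap between genotypes (exact two-sided permutation p = 0.1 each, the smallest that 3 against 3 libraries allow; 0.3 after adjustment over 12 ratios). A ratio within a library does not depend on the scaling between libraries. It shows unequal change of the 2 genes, and not which of them moved.

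Of the other ratios compared, only Nes over Vim was also without overlap, at 0.478, 0.431 and 0.378 in EED-/-, against 0.373, 0.288 and 0.377 in WT libraries (log2 difference 0.32, exact two-sided permutation p = 0.1). The gap between its nearest libraries was 0.378 in EED-/- library 3 and 0.377 in WT library 3, which is smaller than the spread within either genotype. Nefm over Nefl was 1.01, 1.13 and 1.15 in EED-/-, against 0.865, 1.004 and 1.02 in WT libraries, ranges that just overlapped (log2 difference 0.19, exact two-sided permutation p = 0.2). Nefh over Nefl differed by -0.012 on the log2 scale (p = 1 in the same exact permutation test). Relative to Gfap, the log2 ratios of Vim, Nes and Synm differed by -0.67, -0.36 and -0.55, all with overlap.

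**Figure D3:**
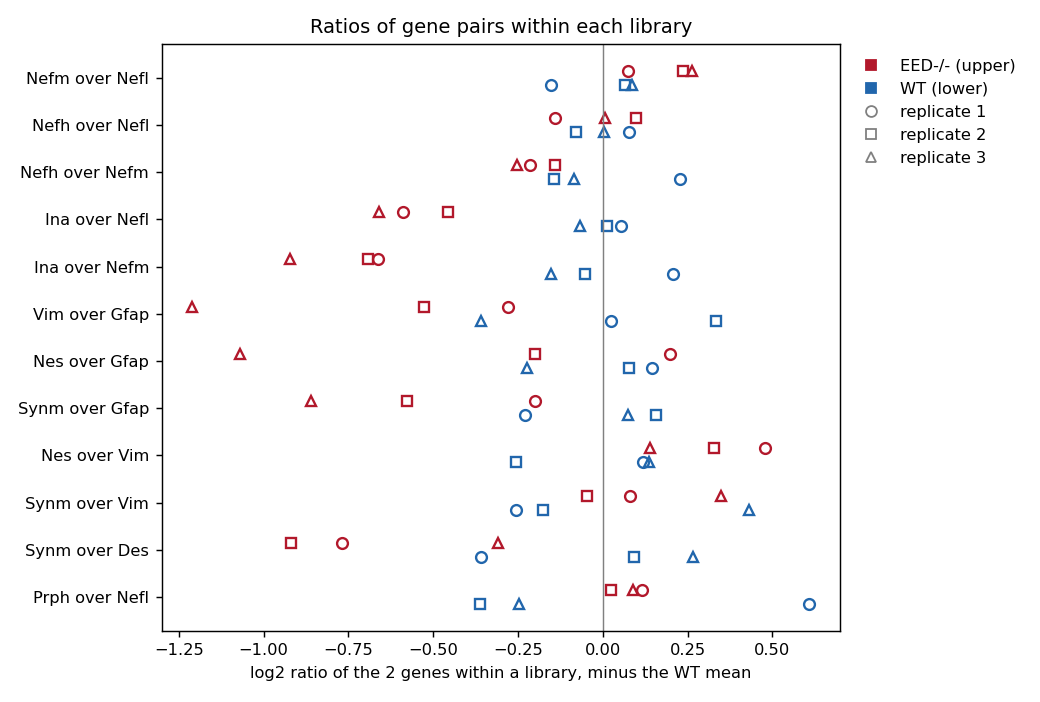
Log2 ratio of 2 intermediate filament genes within each library, minus the WT mean of that ratio, with EED-/- libraries above WT libraries in each line and symbols for replicates. Ina over Nefl and Ina over Nefm lie to the left in EED-/- libraries by means of 0.57 and 0.76, while Nefh over Nefl lies around 0 in both genotypes.

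Per transcript length, which is needed to set genes against each other, Nefm, Nefl and Gfap had the 3 highest mean levels among the members in both genotypes. Levels per length, in TPM, were computed from the counts and the length of the annotated transcript with the longest coding sequence. In EED-/- libraries Nefm was at 744 ± 86.8, Nefl at 667 ± 38.1, Gfap at 618 ± 219, Nefh at 322 ± 35.2 and Ina at 230 ± 12.4 TPM (SD, n = 3). In WT libraries Nefl was at 484 ± 34.1, Nefm at 471 ± 27, Gfap at 284 ± 37.7, Ina at 248 ± 23.5 and Nefh at 236 ± 29.2 TPM. Nefm and Nefl, and Nefl and Gfap, were within each other's spread in EED-/- libraries, where Nefh lay above Ina in every library. In WT libraries the means of the neighbours Nefl and Nefm, Gfap and Ina, and Ina and Nefh differed by less than their spread. Within every WT library, though, Gfap lay above Ina and Ina above Nefh. The last 2 were nearly level in WT library 3, at 237 and 236 TPM. Further down the order stood Vim, at 96.1 ± 13.5 TPM in EED-/- and 73.5 ± 13.1 TPM in WT libraries, and Prph, at 25.4 ± 1.73 TPM in EED-/- and 18.6 ± 8.63 TPM in WT libraries. Synm (15.3 ± 2.16 TPM in EED-/-, 10.6 ± 0.778 TPM in WT libraries) and Nes (14.7 ± 2.26 TPM in EED-/-, 9.03 ± 1.79 TPM in WT libraries) were within each other's spread. Des was lowest, at 8.81 ± 1.63 TPM in EED-/- and 3.86 ± 0.724 TPM in WT libraries.

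Of the 4 neuronal subunits summed per length, Nefm made up 37.8 ± 1.33% in EED-/- and 32.8 ± 2.42% in WT libraries, and Ina made up 11.8 ± 0.78% in EED-/- and 17.2 ± 0.984% in WT libraries. Neither subunit's share overlapped between genotypes (exact two-sided permutation p = 0.1 each, 0.32 after adjustment over 8 shares). The shares of Nefl (34.0% in EED-/-, 33.6% in WT libraries) and Nefh (16.4% in both) overlapped. Of the 4 glial and progenitor subunits, Gfap made up 82.1 ± 4.63% in EED-/- and 75.2 ± 3.72% in WT libraries, with overlap (exact two-sided permutation p = 0.2). The shares of Vim, Nes and Synm also overlapped between genotypes.

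**Figure D4:**
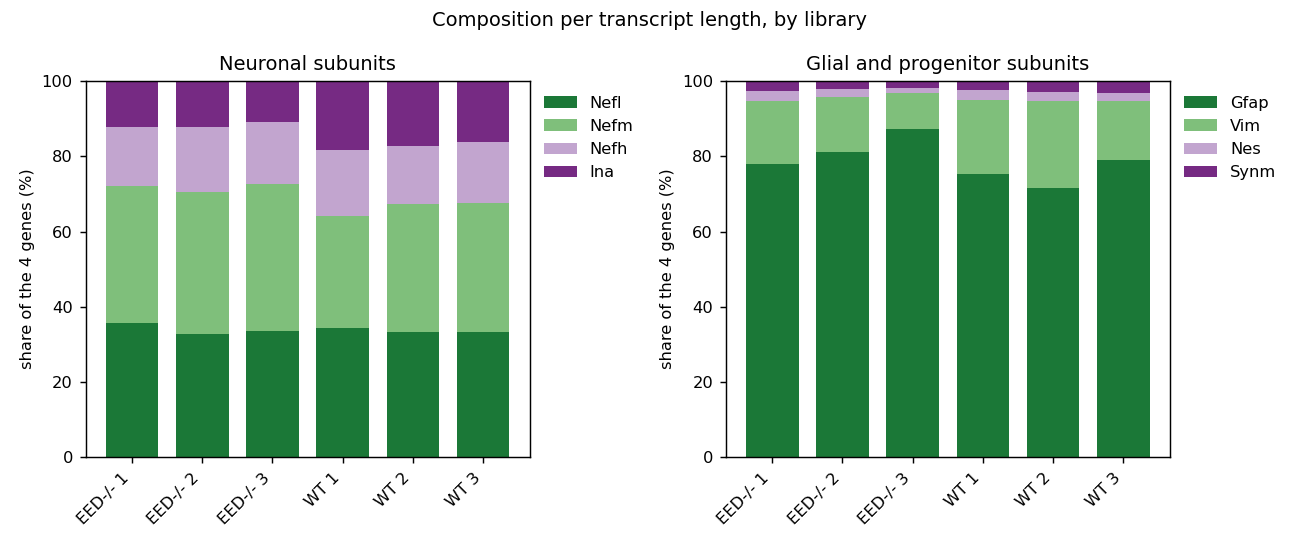
Share of each gene among 4 neuronal subunits (left) and among 4 glial and progenitor subunits (right), per transcript length, as stacked bars in percent for each library with EED-/- libraries first. The Ina segment is 10.9% to 12.3% in EED-/- bars, against 16.2% to 18.2% in WT bars, and Gfap fills 71.4% to 87.2% of every right-hand bar.

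Markers of the neurons that carry neurofilaments moved unevenly. Of 12 Purkinje cell markers 0 rose and 3 fell, and their sums overlapped, at 4527 to 6093 CPM in EED-/- and 4354 to 5096 CPM in WT libraries. Of 10 markers of cerebellar nuclei and projection neurons 3 rose and 1 fell, and their sums overlapped, at 1184 to 1517 CPM in EED-/- and 1274 to 1575 CPM in WT libraries. The genes that rose were the transcription factors Lhx2 and Meis2 and the vesicular glutamate transporter Slc17a6. Nefm equalled 81.7%, 84.1% and 79.9% of the nuclei list's sum in EED-/- libraries, against 39.9%, 52.7% and 53.2% in WT libraries, so the gene was higher relative to these markers as well. The part of a changed mix of neurons in the neurofilament values was not tested.

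Other axonal genes did not share one direction with the neurofilament chains. Of 23 genes of axonal microtubules and growth cones, all tested, 4 rose, 3 fell and 16 were not called, with a median log2 fold change of 0.19. Over all tested genes 11.7% were called higher and 14.1% lower, and the counts of this list were close to those shares. Sncg, which encodes gamma-synuclein, rose by a log2 fold change of 0.84, and Dpysl2, the growth cone protein CRMP2, by 0.40. Tagln3, an actin-associated neuronal protein, fell by 0.93 and Mapt, the microtubule protein tau, by 0.47 on the log2 scale. The numbers called were unstable: 7 rose and 1 fell with upper-quartile scaling, and 1 rose without EED-/- library 1, EED-/- library 2 or WT library 3, against 2 without WT library 2. The number that fell was 1 on library size alone, and also without EED-/- library 2, EED-/- library 3 or WT library 3. Nefm equalled 7.27%, 8.30% and 9.39% of this list's summed CPM in EED-/- libraries, against 4.63%, 5.48% and 5.57% in WT libraries.

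Peripherin had 1 WT library at the level of the EED-/- libraries. Prph (chr15:99055174-99058978, plus strand), whose window above holds a TATA box, was at 20.7, 19.3 and 22.3 CPM in EED-/- libraries 1, 2 and 3, against 22.1, 10.4 and 11.7 CPM in WT libraries. The 3 EED-/- libraries lay close together, and WT library 1 was about level with the highest of them. The difference did not pass the test (log2 fold change 0.49, SE 0.267, adjusted p = 0.215), and without WT library 1 it was 0.96 with an adjusted p of 0.0032. Markers of brainstem, motor and peripheral neurons summed to 225, 221 and 208 CPM in EED-/- libraries, against 149, 90.0 and 117 CPM in WT libraries, with WT library 1 the highest of the WT libraries here too. Of 13 tested markers 4 rose and 0 fell: the homeodomain genes Pou4f1 and Isl1 and the monoamine genes Slc18a2 and Ddc, with log2 fold changes of 2.50, 1.87, 1.103 and 1.04. Phox2a was too low to test. Whether neighbouring brainstem tissue entered the samples was not tested.

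Desmin had the other of the 2 largest rises and the widest gap between genotypes. Des (chr1:75360329-75368579, plus strand) was at 10.7, 14.0 and 10.3 CPM in EED-/- libraries 1, 2 and 3, against 5.90, 4.61 and 4.44 CPM in WT libraries. The lowest EED-/- library was 1.74 times the highest WT library. The means were 11.7 ± 2.04 CPM in EED-/- and 4.99 ± 0.796 CPM in WT libraries (log2 fold change 1.23, SE 0.190, adjusted p = 0.0026). The gene stayed called in all 13 other settings.

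Desmin belongs to muscle and to the contractile cells of vessels, and markers of both were raised beside it. Of 16 skeletal muscle markers 15 rose and 0 fell, with sums of 189, 209 and 158 CPM in EED-/- libraries, against 29.0, 45.7 and 35.8 CPM in WT libraries. The developmental myosins Myh3 and Myh8 averaged 27.5 and 26.9 CPM in EED-/-, against 0.455 and 0.383 CPM in WT libraries, and skeletal actin Acta1 and the slow troponin Tnnt1 also rose. Chrnd, a subunit of the muscle acetylcholine receptor, was at 0 counts in all 3 WT libraries, and no other marker of the 16 cell type lists was at 0 in every library of a genotype. Of 11 tested markers of smooth muscle and pericytes 4 rose and 0 fell (Mylk, Acta2, Notch3 and Rgs5, with log2 fold changes of 0.65 to 0.93), and sums were 487 to 584 CPM in EED-/-, against 344 to 382 CPM in WT libraries. Cnn1 was too low to test.

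Set against these lists, desmin moved differently. It equalled 5.68%, 6.72% and 6.49% of the skeletal muscle sum in EED-/- libraries, against 20.3%, 10.1% and 12.4% in WT libraries. Most of that sum in WT libraries came from Neb, the marker of the list that was not called. Neb had 18.5, 19.0 and 19.8 CPM in EED-/- libraries, against 18.2, 31.7 and 23.2 CPM in WT libraries, so the WT percentages depend on it. Desmin equalled 2.21%, 2.402% and 1.94% of the smooth muscle and pericyte sum in EED-/- libraries, against 1.71%, 1.22% and 1.16% in WT libraries. Desmin thus rose less than the skeletal muscle markers as a sum and more than the vessel markers as a sum. The part of either cell type in the desmin result was not tested.

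**Figure D5:**
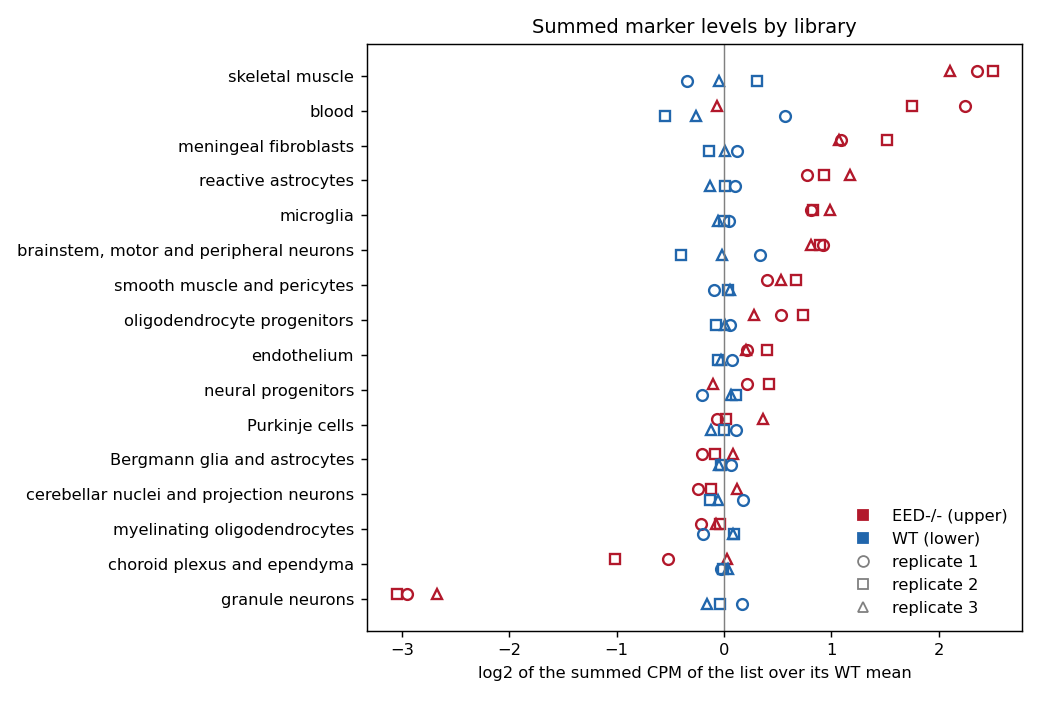
Summed CPM of each cell type marker list as the log2 ratio to its WT mean, with EED-/- libraries above WT libraries in each line and symbols for replicates. Skeletal muscle markers lie farthest to the right in EED-/- libraries (158 to 209 CPM, against 29.0 to 45.7 CPM in WT libraries), granule neuron markers lie farthest to the left, and astrocyte markers lie near 0 in both genotypes.

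The genes whose pattern over the 6 libraries was most like a member's were taken from 12464 genes of at least 5 CPM on average, by Pearson correlation of log2 CPM. The libraries share their genotype difference in all genes, so these values are descriptions only. Closest to Gfap were Msx1 (r = 0.992), Cfap65 (0.985) and Gpr137b-ps (0.985), and 36 genes had an r over 0.95. Closest to Nefm were Mylk (0.998), Lap3 (0.996) and Cdk6 (0.995), with 232 genes over 0.95. Closest to Des were Aldh1a2 (0.998), Yap1 (0.998) and Anxa2 (0.997), with 260 genes over 0.95. Msx1, a homeodomain gene, followed Gfap across EED-/- libraries, at 5.25, 6.73 and 7.73 CPM in EED-/- libraries 1, 2 and 3, against 4.92, 4.35 and 4.86 CPM in WT libraries, but was not itself called (adjusted p = 0.0995).

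Among other genes of the intermediate filament family, 1 lamin was called lower and 1 keratin higher. Over all tested genes 11.7% were called higher and 14.1% lower, and lists this small cannot be told apart from those shares. Of the 3 nuclear lamins, which line the nucleus of all cells, Lmnb2 fell to 19.6 ± 3.77 CPM in EED-/-, against 32.7 ± 4.65 CPM in WT libraries (log2 fold change -0.74, adjusted p = 0.0155), and Lmna and Lmnb1 were not called. Without EED-/- library 1, EED-/- library 3 or WT library 3, none of the lamins was called lower. Of 17 keratins and other filament genes 10 could be tested, and Krt1 rose to 7.26 ± 1.24 CPM in EED-/-, against 4.42 ± 0.927 CPM in WT libraries (adjusted p = 0.0409). That count was 0 without EED-/- library 1, EED-/- library 2 or any 1 of the WT libraries.

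Of 17 genes for linkers, chaperones and turnover of intermediate filaments 1 rose and 2 fell, and the median log2 fold change was 0.010. The plakin Evpl, a linker of filaments to desmosomes, rose by a log2 fold change of 0.66 (adjusted p = 0.0268). The related plakin Ppl fell to 0.622 ± 0.254 CPM in EED-/-, against 2.404 ± 0.213 CPM in WT libraries (adjusted p = 0.0043). The number that rose was 0 without EED-/- library 1, 2 or 3, WT library 2 or WT library 3, and 2 without WT library 1, and the number that fell was 1 without each library other than WT library 1.

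The authors' deposited table gives adjusted p-values under 0.05 and higher levels in EED-/- for 7 members. In the authors' deposited table these are Gfap, Nes, Synm, Nefl, Nefm, Nefh and Des, with log2 fold changes of 1.18, 0.76, 0.59, 0.52, 0.72, 0.51 and 1.25. Vim has an adjusted p of 0.0519 in the authors' deposited table, and Prph and Ina have 0.201 and 0.848.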

How the data were processed

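RNA-seq of polyadenylated RNA in 3 EED-/- and 3 WT libraries of cerebellum was used. The authors deposited estimated counts per gene, not scaled between libraries, of which 22.5% to 23.6% per library were not whole, and a table of log2 fold changes and adjusted p-values, whose direction (EED-/- over WT) was checked on 2316 genes. Per the submitters' processing notes, Salmon 1.1.0, DESeq2 1.26.0, Bowtie2 2.4.1, MACS2, Trimmomatic 0.36 and the builds GRCm38 and mm10 were used, with no role given. Salmon splits reads among similar transcripts; use of strand was among the things not given in the sources used here.

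Estimated counts were rounded, filtered with filterByExpr, scaled by TMM and tested with edgeR 4.0.16 (R 4.3.3; quasi-likelihood, robust, genotype only, two-sided, adjusted p under 0.05). SEs are the absolute log2 fold change over the square root of F. DESeq2 1.42.0, limma-voom (limma 3.58.1), other scalings, no filter, a replicate block and leaving out each library were alternatives. The procedure was tested on simulated data with changes larger than those of most members, so changes of their size were not covered. Pair ratios used a prior count of 0.5 and exact permutation tests. Chi-square per degree of freedom between replicate libraries was 9.11 to 61.4, so none was counted as a repeat deposit. The labels name no molecular identifiers, and 1 CPM is about 20 counts, which limits precision below it. TPM used GENCODE transcript lengths, found for 99.9% of tested genes; promoter sequences are RefSeq's.

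The members, the 21 lists (256 genes) and the tests were chosen with earlier results of these data known. Named genes are the members, Eed, up to 4 called genes of a list by smallest adjusted p, and the 3 genes most like Gfap, Nefm and Des. Lifr, Cntfr, Socs3, Smad1, Stat3, Lmna, Lmnb1, Chrnd, Neb and genes too low to test were named after their values were seen. Some called list genes are not reported here by name.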

Additional observations from a re-analysis of the deposited data

How the results depend on the processing

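The number of members called higher was 7 with RLE factors, DESeq2 and limma-voom and 8 (Vim added) under upper-quartile scaling, on library size alone or with no low-count filter. Leaving out 1 library at a time gave 4 to 8. The number was 4 without WT replicate 3 (Nes, Nefl and Nefh lost) and 8 without WT replicate 1 (Prph added). Each of these fits had fewer samples, and the cause of the losses was not tested. No member was called lower in any setting; the log2 fold change of Ina alone turned sign, to 0.046 under upper-quartile scaling and 0.030 on library size alone, and ranged over -0.106 to 0.040 with 1 library left out (0.040 without WT replicate 1); the cause was not tested. Upper-quartile scaling and library size alone moved the median of all genes up by 0.12 and 0.1 (log2), so part of every change of that size rests on the scaling. Gfap, Synm, Nefm and Des kept their calls in all 13 settings.

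With the replicate number as a replicate block 6 members were called higher (Nefh at adjusted p = 0.0692), and over all genes 1505 were higher and 1706 lower. Deviations of same-numbered libraries correlated at 0.0276, -0.233 and -0.00125, and those of differently numbered libraries at -0.188 to 0.198. The correlations thus showed no pairing by number. Deviations were taken from the mean of so few libraries that the check cannot exclude one. The block left 1 axonal gene higher and 1 lower, 0 keratins higher, and 0 linkers higher and 1 lower. RLE factors, upper-quartile scaling, library size alone, no filter and DESeq2 each left 1 linker lower, and the last 4 called 2 linkers higher. Of the 12 ratios, those of Nefh over Nefl, Synm over Vim and Prph over Nefl, all with overlap, turned sign without some library.

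Depth limits Des and Prph most: Des had 85.5 to 298 counts per library and Prph 193 to 456. The labels name no batch, and 3 libraries per genotype bound every interval.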
